A study of Mus musculus with 16 samples.

Results

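The *Ugt1a* locus of the mouse was followed through its 9 members in the authors' table of gene expression, *Ugt1a1*, *Ugt1a2*, *Ugt1a5*, *Ugt1a6a*, *Ugt1a6b*, *Ugt1a7c*, *Ugt1a8*, *Ugt1a9* and *Ugt1a10*, out of 48432 genes. They were taken by symbol, and the locus was chosen because *Ugt1a5* and *Ugt1a7c* lay on opposite sides of their controls in LDAH-Tg macrophages, so their ratios in that comparison are a description only. Each value is the authors' mean of a group in transcripts per 1000000 (TPM), a level scaled for transcript length. RNA came from 16 samples of mouse peritoneal macrophages (PM), 4 in each of 4 groups: LDAH-Tg and the WT littermates that serve as controls of the Tg line, and LDAH-KO with the WT littermates of the KO line. The table holds no value of a single sample, so SDs, p-values and replicate checks could not be had for any difference, the depth is unknown, and neighbours in an order of levels cannot be told apart by their spread.

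Lipid droplet-associated hydrolase (LDAH) sits on the lipid droplets of foam cells, and the comparisons ask how its gain and its loss bear on gene expression in such cells. All PM carry a C57BL/6J strain label, were harvested 5 days after 3% thioglycolate and then received oxidized LDL (oxLDL) at 50 μg/ml for 48 h, the controls included. LDAH-Tg PM carry the label "LDAH overexpression" and come from hemizygous mice whose transgene is driven by the promoter and an intronic enhancer of *Csf1r*, active in macrophages and granulocytes. The founders of that line were B6D2F1 hybrids, later crossed to C57BL/6. Their controls are littermates without the transgene and are labelled "LDAH ApoE control", a name that brings in ApoE where the label of LDAH-Tg does not. LDAH-KO PM ("LDAH KO") lack LDAH in every cell through homologous recombination in *Ldah*, and their littermate controls are labelled "LDAH WT". Neither the age and sex of the mice behind these samples nor their *Apoe* genotype was found in the sources used here. The *Apoe* transcript itself had 7947 TPM in LDAH-Tg PM, 8775 TPM in their littermate controls, 10404 TPM in LDAH-KO PM and 9565 TPM in their littermate controls, with log2 ratios of -0.14 for LDAH-Tg and 0.12 for LDAH-KO.

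The *Ldah* mean was 124 TPM in LDAH-Tg PM, against 28.5 TPM in their littermate controls. It was 27.9 TPM in LDAH-KO PM, against 44.5 TPM in theirs, and a mean over the whole gene does not show which exons those reads covered. The macrophage markers *Adgre1*, *Cd68*, *Csf1r*, *Itgam* and *Mertk* were all present, between 22.4 and 4959 TPM. Of the hepatocyte markers, *Ttr* was listed at 0 throughout, and *Alb* and *Apoa1* stood at 0.00624 and 0.0333 TPM in LDAH-Tg PM and were listed at 0 in the other groups. The control groups of the lines differed widely from each other over the table, with 12.1% of 11404 genes higher and 26.5% lower by a factor of 1.5 in the controls of the Tg line than in those of the KO line. Each genotype was therefore set against its own controls. The abundant gene *Prdx1* had 5802 TPM in LDAH-Tg PM, against 7583 TPM in their littermate controls, but was listed at 0 in both groups of the KO line. A value of 0 is therefore given below only as listed at 0.

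UDP-glucuronosyltransferases of the endoplasmic reticulum join glucuronic acid, taken from UDP-glucuronate, to bilirubin, steroids, phenols and many drugs, which makes them soluble enough for export. The *Ugt1a* locus is built as an array of alternative first exons, each with its own promoter and each spliced to the same set of common exons. The first exon encodes the part of the enzyme that binds the acceptor, and the common exons encode the part that binds UDP-glucuronate. The locus is best known from liver, intestine and kidney, where it is controlled by xenobiotic and nuclear receptors, and macrophages are not a main site of glucuronidation.

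In GENCODE M21 (GRCm38, the build of the authors' alignment) the members lie on the plus strand of chromosome 1 between positions 88055388 and 88220002. Their order along the strand is *Ugt1a10*, *Ugt1a9*, *Ugt1a8*, *Ugt1a7c*, *Ugt1a6b*, *Ugt1a6a*, *Ugt1a5*, *Ugt1a2* and *Ugt1a1*, the last starting at 88211959. Exons 2 to 5, counted with the first coding exon as exon 1, are shared by all 9 over these stretches: chr1:88215044-88215175, chr1:88215795-88215882, chr1:88216138-88216357 and chr1:88218127-88218997. The last exon runs past 88218997 by a few bases in *Ugt1a6b*, *Ugt1a8* and *Ugt1a10* and by far more in *Ugt1a7c*. The 1311 shared bases make up 56.9% to 59.9% of the longest coding transcript of every member except *Ugt1a7c*, where they make up 39.7%. The *Ugt1a7c* model alone runs on for 998 bases past the end of every other member, to 88220002. The joints between each first coding exon and exon 2 are shown for the 6 members that reached 1 TPM, since they are where each first exon meets the shared sequence. The line of *Ugt1a7c* is the joint of *Ugt1a7c-201*. Lower case marks the last 25 bases of the first coding exon and capitals mark the first 25 bases of exon 2:
Ugt1a9: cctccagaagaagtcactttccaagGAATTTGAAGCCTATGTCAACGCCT
Ugt1a7c: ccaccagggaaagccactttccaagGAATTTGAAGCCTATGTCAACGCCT
Ugt1a6b: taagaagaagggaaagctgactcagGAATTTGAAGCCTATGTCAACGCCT
Ugt1a6a: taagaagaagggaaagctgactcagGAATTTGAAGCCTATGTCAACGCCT
Ugt1a5: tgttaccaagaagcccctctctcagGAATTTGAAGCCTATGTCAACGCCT
Ugt1a1: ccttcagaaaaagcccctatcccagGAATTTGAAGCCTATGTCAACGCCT
On the plus strand of GRCm38 the lower-case runs end at 88071678 for *Ugt1a9*, 88095978 for *Ugt1a7c*, 88107799 for *Ugt1a6b*, 88139331 for *Ugt1a6a*, 88166903 for *Ugt1a5* and 88212871 for *Ugt1a1*, and the capitals begin at 88215044. The capitals are the same in every line. The lower-case bases of *Ugt1a6a* and *Ugt1a6b* are identical too, and those of *Ugt1a5* are identical to those of *Ugt1a2*, so a read over these 50 bases does not separate the members of either pair. The joint of *Ugt1a6a* is also that of the transcript *Ugt1a7c-202*.

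Over whole first coding exons, *Ugt1a6a* and *Ugt1a6b* were 97.0% identical. *Ugt1a7c*, *Ugt1a8*, *Ugt1a9* and *Ugt1a10* were 80.8% to 91.2% identical among themselves, with *Ugt1a9* and *Ugt1a10* the closest pair. *Ugt1a5* was 81.6% identical to *Ugt1a2* but 58.8% to *Ugt1a1*. Between these 3 groups of exons the identity was 55.1% to 58.7% in 26 pairs. Annotated transcripts also cross between members. The transcript *Ugt1a7c-202* has no exon of its own before the common exons: it starts in the 127-base upstream exon of *Ugt1a6b* (chr1:88103252-88103378) and goes on in the first coding exon of *Ugt1a6a* (chr1:88138473-88139331, 859 bases). The upstream exons of *Ugt1a6a* and *Ugt1a6b* have the same sequence, so each of the 2198 windows of 100 bases in the longest coding transcript of *Ugt1a6a*, the length of 1 read, occurs in a *Ugt1a7c* transcript as well. The share of such windows found in no other member was 28.5% for *Ugt1a6b*, 36.9% for *Ugt1a5*, 41.5% for *Ugt1a9*, 42.8% for *Ugt1a1* and 60.5% for *Ugt1a7c-201*, and 1214 windows are shared by all 9 members. How reads from shared exons were divided among members is not given in the sources used here. The value of a single member therefore rests on that division, and *Ugt1a6a* and *Ugt1a7c* in particular are uncertain.

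**Figure D1:**
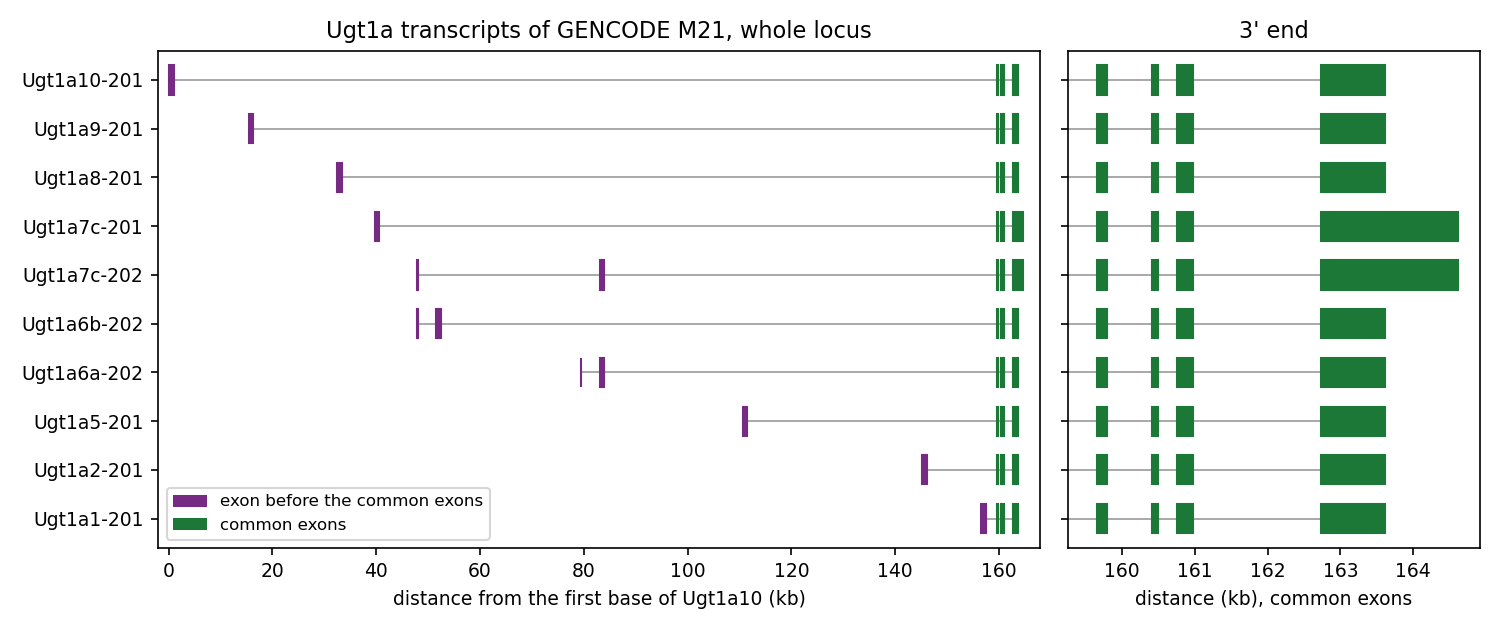
Exons of the longest coding transcript of each *Ugt1a* member in GENCODE M21, with *Ugt1a7c-201* added, by distance in kb from the first base of *Ugt1a10*, the whole locus on the left and the 3′ end on the right. Purple boxes are exons before the common exons and green boxes the common exons; every transcript runs into 4 green boxes with the same starts, *Ugt1a7c* runs 998 bases further, and *Ugt1a7c-202* begins with exons of *Ugt1a6b* and *Ugt1a6a*.

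The members split by line. In PM of the Tg line 6 members were at 1 TPM or more, *Ugt1a7c*, *Ugt1a6a*, *Ugt1a6b*, *Ugt1a5*, *Ugt1a9* and *Ugt1a1*, in LDAH-Tg PM and in their littermate controls alike. In the KO line *Ugt1a7c*, *Ugt1a6a* and *Ugt1a6b* carried 99.9% of the summed level in LDAH-KO PM and 99.9% in their littermate controls. *Ugt1a2*, *Ugt1a8* and *Ugt1a10* had next to no signal anywhere: each was above 0 in 1 group only, *Ugt1a2* at 0.000181 TPM in the controls of the Tg line, *Ugt1a8* at 0.00344 TPM in LDAH-Tg PM and *Ugt1a10* at 0.0218 TPM in LDAH-KO PM. They are left out of every comparison but counted in the sum. Summed over the 9 members the locus reached 46.3 TPM in LDAH-Tg PM, 59.8 TPM in their littermate controls, 84.0 TPM in LDAH-KO PM and 84.9 TPM in their littermate controls. Taken as 1 gene, the sum would stand above 94.1% to 96.0% of all 48432 genes in the table. Most of these were listed at 0, since only 19200 (LDAH-KO PM) to 20103 (LDAH-Tg PM) were above 0 in a group. The rest of the locus had little signal: of the 10 further genes that share its interval in the table, *Dnajb3*, a chaperone gene inside an intron of the array, had 1.55 TPM in LDAH-Tg PM, 1.61 TPM in their littermate controls, 0.729 TPM in LDAH-KO PM and 0.873 TPM in their littermate controls. The other 9, all predicted *Gm* models, stayed below 0.1 TPM, 3 of them listed at 0 in every group.

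*Ugt1a7c* (ENSMUSG00000090124.7), whose human counterpart UGT1A7 acts outside the liver on phenols and products of combustion, had the highest level of all members in each group. It reached 11.6 TPM in LDAH-Tg PM, 24.3 TPM in their littermate controls, 73.1 TPM in LDAH-KO PM and 76.9 TPM in their littermate controls. Its share of the sum was 25.03%, 40.6%, 87.0% and 90.6% in the same order. *Ugt1a6a*, an enzyme of small phenols, had 10.5 TPM in LDAH-Tg PM, 14.1 TPM in their littermate controls, 8.89 TPM in LDAH-KO PM and 6.83 TPM in their littermate controls. Its share ran from 8.04% in the controls of the KO line to 23.5% in those of the Tg line, and it was the second member of the locus in every group. *Ugt1a6b*, nearly a copy of *Ugt1a6a*, had 3.52 TPM in LDAH-Tg PM, 4.65 TPM in their littermate controls, 1.92 TPM in LDAH-KO PM and 1.00 TPM in their littermate controls. It stayed below *Ugt1a6a* in each group.

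The other members with signal were seen in the Tg line. *Ugt1a9*, an enzyme of phenols and fatty acids in humans, had 9.01 TPM in LDAH-Tg PM, against 11.4 TPM in their littermate controls, and was listed at 0 in both groups of the KO line. *Ugt1a5* (ENSMUSG00000089943.1) had 9.20 TPM in LDAH-Tg PM, against 2.84 TPM in their littermate controls. It was listed at 0 in LDAH-KO PM and stood at 0.0231 TPM in the controls of the KO line. *Ugt1a1*, the enzyme that conjugates bilirubin, had 2.50 TPM in LDAH-Tg PM, 2.59 TPM in their littermate controls, 0.0976 TPM in LDAH-KO PM and 0.0889 TPM in their littermate controls. Together the 6 members outside *Ugt1a6a*, *Ugt1a6b* and *Ugt1a7c* made up 44.7% of the sum in LDAH-Tg PM and 28.1% in their littermate controls, and 0.142% in LDAH-KO PM and 0.132% in theirs.

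**Figure D2:**
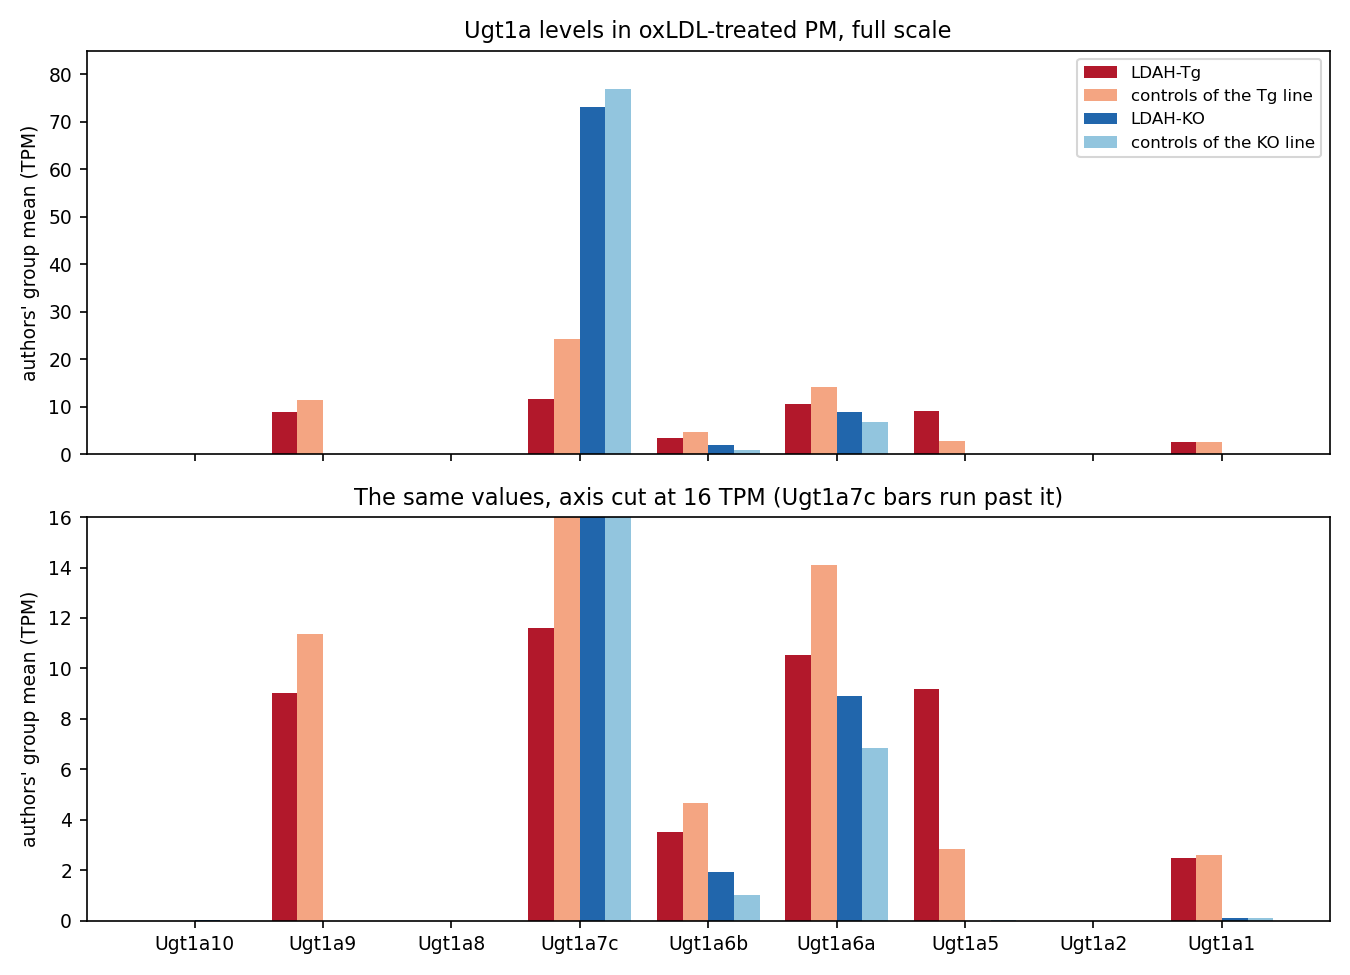
Authors' mean TPM of each *Ugt1a* member, in the order of the locus, in LDAH-Tg PM, their littermate controls, LDAH-KO PM and their littermate controls (4 samples per group, 1 bar per group, no error available). The upper panel has the full axis and the lower panel is cut at 16 TPM: *Ugt1a7c* stands at 73.1 and 76.9 TPM in the KO line, and *Ugt1a9*, *Ugt1a5* and *Ugt1a1* have visible bars in the Tg line only.

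In LDAH-Tg PM the sum of the locus was lower than in the WT controls, with a log2 ratio of -0.37, or 0.774 of the control value. Log2 ratios were taken after adding 0.5 TPM to each mean, and a factor of 1.5 (0.585 on the log2 scale) served as a mark of size, not as a test. The sum stayed short of that factor. The middle 50% of 11395 genes lay between -0.12 and 0.14, around a median of 0.00, so the sum sat below that range. The sum holds *Ugt1a5* and *Ugt1a7c*, chosen on this contrast, so its place beside all genes is a description only. Its log2 ratio was -0.03 without *Ugt1a7c* and -0.35 without both. Only *Ugt1a5* was higher and only *Ugt1a7c* lower by the factor among the 6 members that could be compared, which are the members with a mean of at least 1 TPM and a value above 0 in both groups. Over all genes 1.26% were higher and 0.685% lower, and nothing is read from the members' count beside these shares, since the pair was chosen on this contrast.

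The opposite values of that pair were 9.20 against 2.84 TPM for *Ugt1a5*, a log2 ratio of 1.54, and 11.6 against 24.3 TPM for *Ugt1a7c*, a log2 ratio of -1.04. In TPM, *Ugt1a7c* was lower by 12.7 and *Ugt1a5* higher by 6.36 in LDAH-Tg PM, so they did not cancel. The pair together held 20.8 TPM in LDAH-Tg PM, against 27.1 TPM in their littermate controls, a log2 ratio of -0.38. Its share of the sum was 44.9% in LDAH-Tg PM and 45.4% in their littermate controls. *Ugt1a5* held 19.8% of the sum in LDAH-Tg PM, just above *Ugt1a9* (19.4%), and 4.75% in their littermate controls, where it lay below both *Ugt1a9* (18.99%) and *Ugt1a6b* (7.77%).

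Of the members that were not used to choose the locus, 3 lay close together and *Ugt1a1* apart from them. *Ugt1a6a* had a log2 ratio of -0.41, *Ugt1a6b* of -0.36 and *Ugt1a9* of -0.32, none of them past the factor of 1.5 and all below the middle 50% of genes. *Ugt1a1* had a ratio of -0.04, inside that range. These members may still not be independent of *Ugt1a7c*, chosen for its low value, since they share sequence with it. Of the read-length windows in the longest coding transcript, all 2198 of *Ugt1a6a* and 1575 of 2204 of *Ugt1a6b* also occur in *Ugt1a7c* transcripts. For *Ugt1a9* it was 1223 of 2091 and for *Ugt1a1* 1215 of 2125. Other annotated *Ugt1a6a* transcripts reach further: by position, 2142 of the 4312 exon bases of that gene lie in no other member. Whether the division of shared reads bears on these ratios, or on their sum, was not tested. The sum without *Ugt1a5* and *Ugt1a7c* was 25.6 TPM in LDAH-Tg PM, against 32.7 TPM in their littermate controls, a log2 ratio of -0.35. The sum of the locus, the pair and the remainder thus had nearly the same ratio. The shares of *Ugt1a6a* (22.7% in LDAH-Tg PM, 23.5% in their littermate controls), *Ugt1a6b* (7.59% and 7.77%) and *Ugt1a9* (19.4% and 18.99%) differed by less than 1 percentage point.

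Because *Ugt1a7c* transcripts share exons with *Ugt1a6a* and *Ugt1a6b*, these 3 were also added into 1 value. They came to 25.6 TPM in LDAH-Tg PM, against 43.1 TPM in their littermate controls, a log2 ratio of -0.74, which is past the factor of 1.5 and has *Ugt1a7c*, chosen for its low value, in it. *Ugt1a6a* and *Ugt1a6b* alone came to 14.0 TPM in LDAH-Tg PM, against 18.7 TPM in their littermate controls, a log2 ratio of -0.40. The other 6 members came to 20.7 TPM in LDAH-Tg PM, against 16.8 TPM in their littermate controls, a log2 ratio of 0.29. That direction turned without *Ugt1a5*, chosen for its high value: the remaining 5 came to 11.5 TPM in LDAH-Tg PM, against 14.0 TPM in their littermate controls, a log2 ratio of -0.27. Without *Ugt1a7c* alone, the sum was 34.7 TPM in LDAH-Tg PM, against 35.5 TPM in their littermate controls, a log2 ratio of -0.03. That near balance rests on *Ugt1a5*, since *Ugt1a6a*, *Ugt1a6b*, *Ugt1a9* and *Ugt1a1* were each lower in TPM.

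Of the markers of other cell types, 1 of 4 fibroblast markers passed the factor in this comparison, and neither of the measured mesothelial markers did. Over all genes 1.26% were higher and 0.685% lower by the factor. Summed fibroblast markers (*Pdgfra*, *Dcn*, *Col1a1*, *Col3a1*) were 23.4 TPM in LDAH-Tg PM, against 22.7 TPM in their littermate controls, and *Col1a1*, the one past the factor, had 5.44 against 3.26 TPM. The macrophage marker *Adgre1* was 22.4 TPM in LDAH-Tg PM, against 33.1 TPM in their littermate controls, a log2 ratio of -0.55, and *Itgam* was 110 TPM against 144 TPM, a ratio of -0.39. *Cd68*, *Csf1r* and *Mertk* had ratios of -0.02, -0.09 and 0.03. In bulk RNA, fewer cells of a type and less RNA per cell cannot be told apart. Their part in the *Ugt1a* values was not tested.

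**Figure D3:**
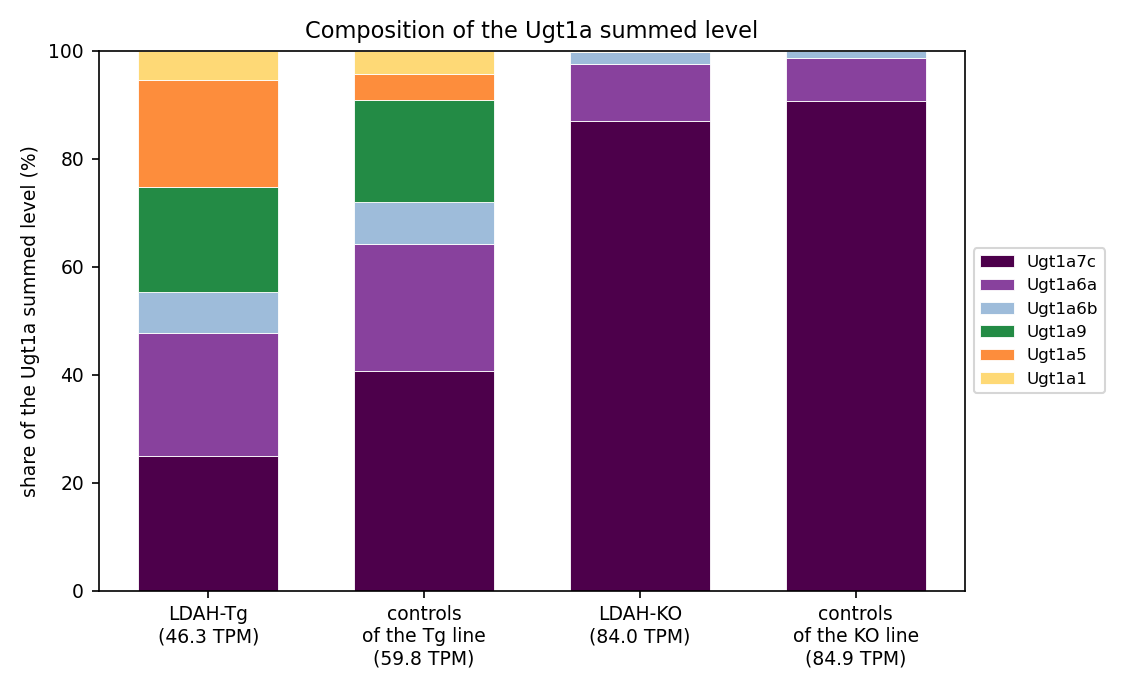
Share of the *Ugt1a* summed level held by each member, in percent of the sum, in LDAH-Tg PM, their littermate controls, LDAH-KO PM and their littermate controls, with the sum in TPM under each bar. *Ugt1a7c* holds 25.03% in LDAH-Tg PM against 40.6% in their littermate controls, and 87.0% in LDAH-KO PM against 90.6% in theirs.

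In LDAH-KO PM the sum of the locus was 84.0 TPM, against 84.9 TPM in the WT controls, a log2 ratio of -0.02. The middle 50% of 11289 genes lay between -0.20 and 0.04 around a median of -0.08, so the sum sat inside that range. *Ugt1a7c* made up most of it and had a log2 ratio of -0.07. *Ugt1a6a* was at 8.89 TPM in LDAH-KO PM and 6.83 TPM in their littermate controls, a log2 ratio of 0.36, short of the factor of 1.5. *Ugt1a6b* was at 1.92 TPM and 0.9997 TPM, a log2 ratio of 0.69 and the only member past the factor. With a control value just under 1 TPM, it passed the filter only through LDAH-KO PM, where it was high. It could therefore only be counted as higher. At this low level the ratio depends on the pseudocount, and with 1 TPM added in place of 0.5 it was 0.55, short of the factor. Of the 3 members that could be compared, 1 was higher and 0 were lower by the factor. Over all genes 0.39% were higher and 1.83% lower, and nothing is read from the members' count beside these shares.

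Together *Ugt1a6a* and *Ugt1a6b*, the pair of most alike first exons, came to 10.8 TPM in LDAH-KO PM and 7.83 TPM in their littermate controls, a log2 ratio of 0.44. *Ugt1a6a* was higher by 2.07 TPM and *Ugt1a6b* by 0.919 TPM while *Ugt1a7c* was lower by 3.89 TPM, so the total of the 3 was 83.9 TPM in LDAH-KO PM and 84.8 TPM in their littermate controls. *Ugt1a1* was below 0.1 TPM in both groups and was not compared. *Ugt1a5* was not compared either, since it was listed at 0 in LDAH-KO PM and at 0.0231 TPM in their littermate controls. *Ugt1a9* was listed at 0 in both. Fibroblast and mesothelial markers differed in this comparison. All 4 fibroblast markers were lower by the factor of 1.5 in LDAH-KO PM, at 15.9 against 31.7 TPM summed. So were both measured mesothelial markers, *Wt1* and *Upk3b* (2.70 against 5.41 TPM summed over the 4 listed). *S100a8* and *Siglecf* had log2 ratios of 0.09 and -0.07. Over all genes 1.83% were lower by the factor. The summed macrophage markers were 3532 TPM in LDAH-KO PM and 3909 TPM in their littermate controls, most of it *Cd68* (3023 and 3321 TPM). Their log2 ratios were 0.01 (*Adgre1*), -0.14 (*Cd68*), -0.20 (*Csf1r*), -0.33 (*Itgam*) and -0.23 (*Mertk*). The part of these cells in the *Ugt1a* values was not tested.

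**Figure D4:**
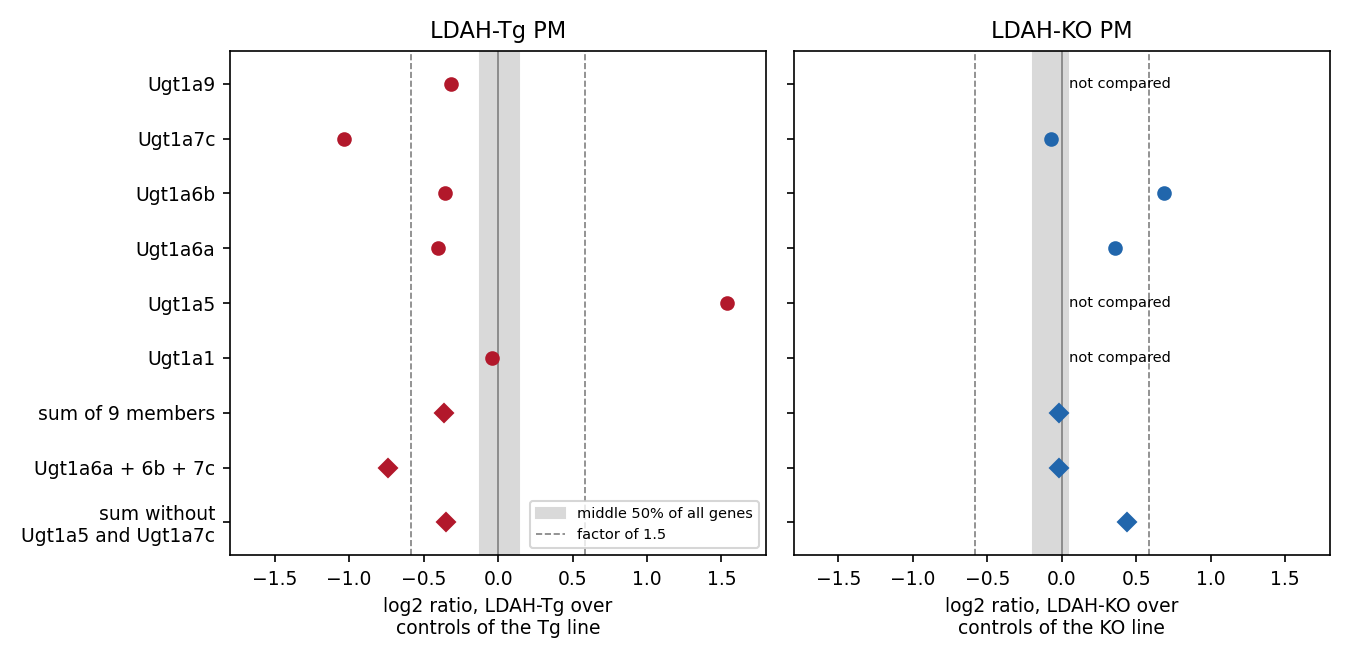
Log2 ratios (after adding 0.5 TPM) of 6 *Ugt1a* members (circles) and of sums over members (diamonds), LDAH-Tg over WT controls on the left and LDAH-KO over WT controls on the right. The grey band is the middle 50% of all genes and dashed lines mark a factor of 1.5: in LDAH-Tg PM *Ugt1a5* lies at 1.54 and *Ugt1a7c* at -1.04, and in LDAH-KO PM *Ugt1a6b* alone lies past a dashed line, at 0.69.

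Contrasts larger than those of either genotype were seen between the control groups of the lines, those of the Tg line set against those of the KO line. *Ugt1a7c* was at 24.3 TPM in the first and 76.9 TPM in the second, a log2 ratio of -1.64. *Ugt1a6a* (14.1 against 6.83 TPM) had a log2 ratio of 0.99 and *Ugt1a6b* (4.65 against 1.00 TPM) of 1.78. *Ugt1a1* (2.59 against 0.0889 TPM) had a ratio of 2.39 and *Ugt1a5* (2.84 against 0.0231 TPM) of 2.67, both held down by the 0.5 TPM added, since the plain ratios were 29.2 and 123. Of the 5 members compared, 4 were higher and 1 was lower by the factor of 1.5, beside 12.1% and 26.5% of all genes and a median over all genes of -0.17. *Ugt1a1*, *Ugt1a5* and *Ugt1a6b*, the last at 0.9997 TPM in the controls of the KO line, passed the filter only through the controls of the Tg line. They were high there, so they could only be counted as higher. The sum was 59.8 TPM in the controls of the Tg line and 84.9 TPM in those of the KO line, a log2 ratio of -0.50. In the same contrast the macrophage markers had log2 ratios of -2.13 (*Adgre1*), -0.92 (*Itgam*), -0.11 (*Csf1r*), -0.01 (*Mertk*) and 0.58 (*Cd68*). Line, genetic background, handling and the way reads were turned into values cannot be told apart here.

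Ordered from low to high *Ugt1a7c*, the groups ran LDAH-Tg, its littermate controls, LDAH-KO and its littermate controls. The sum of the locus ran in the same order, but *Ugt1a7c* is part of it. Without *Ugt1a7c* the sum was 34.7 TPM in LDAH-Tg PM, 35.5 TPM in their littermate controls, 10.9 TPM in LDAH-KO PM and 7.94 TPM in their littermate controls. The genes whose pattern over the 4 groups was most like that of the sum of all 9 members were *Prelid2*, *Ctsk* and *Wbp5*, by the largest difference in log2 level after centring, over 11344 genes. *Ctsk*, the lysosomal protease cathepsin K, had 889 TPM in LDAH-Tg PM, 1174 TPM in their littermate controls, 1633 TPM in LDAH-KO PM and 1634 TPM in their littermate controls, and was never more than 0.02 from the sum on that scale. Nearest to *Ugt1a7c* were *Gm10698*, *Vapb* and *Styx*, at most 0.24 away. Nearest to *Ugt1a5* were *Sap25*, *Gm43652* and *Gm15832*, at most 0.58 away. These are likenesses over 4 group means, without a test.

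The promoters of the opposite pair are shown because each first exon starts from its own promoter. The windows hold 250 bases before and 50 bases after the RefSeq start on GRCm38.p6, plus strand, chr1:88165762-88166061 for *Ugt1a5* and chr1:88094751-88095050 for *Ugt1a7c*, and capitals mark the core bound by the aryl hydrocarbon receptor (AhR), GCGTG:
Ugt1a5: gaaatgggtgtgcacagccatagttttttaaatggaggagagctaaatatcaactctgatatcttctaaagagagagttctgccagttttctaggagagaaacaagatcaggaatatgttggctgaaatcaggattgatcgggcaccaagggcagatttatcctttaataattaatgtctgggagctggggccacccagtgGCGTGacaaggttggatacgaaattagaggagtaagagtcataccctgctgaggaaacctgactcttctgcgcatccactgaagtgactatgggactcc
Ugt1a7c: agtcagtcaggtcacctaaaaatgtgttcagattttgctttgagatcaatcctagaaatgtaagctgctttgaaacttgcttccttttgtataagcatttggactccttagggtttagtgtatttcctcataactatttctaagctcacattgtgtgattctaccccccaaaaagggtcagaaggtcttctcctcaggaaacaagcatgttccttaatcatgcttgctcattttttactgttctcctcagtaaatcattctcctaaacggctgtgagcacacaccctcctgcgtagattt
RefSeq gave such a window for 8 of the 9 members, all except *Ugt1a6b*. On either strand, the AhR core was found in 2 of the 8, *Ugt1a5* (plus strand) and *Ugt1a8* (minus strand), beside 32.4% of 32851 promoters of all genes. The core of the antioxidant response element bound by Nrf2, TGACNNNGC, was in 0 of the 8 windows (12.4% of all promoters), and TATAAA in 0 of the 8 (13.6%). A match here is a run of letters and not a measured site.

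Of 16 regulators that act on *Ugt1a* genes in other tissues, some had values near 0 and others were abundant. *Ahr*, the receptor itself, was low, at 0.593 TPM in LDAH-Tg PM, 0.747 TPM in their littermate controls, 1.13 TPM in LDAH-KO PM and 1.28 TPM in their littermate controls. *Nr1i2* (PXR), *Nr1i3* (CAR), *Ppara* and *Hnf4a* stayed at or below 0.0262 TPM in every group. *Nfe2l2*, which encodes Nrf2, had 185 TPM in LDAH-Tg PM, 228 TPM in their littermate controls, 248 TPM in LDAH-KO PM and 274 TPM in their littermate controls. *Pparg*, a nuclear receptor of fatty acids, had 64.4 TPM in LDAH-Tg PM, 72.0 TPM in their littermate controls, 151 TPM in LDAH-KO PM and 173 TPM in their littermate controls. None of 10 measured regulators in LDAH-Tg PM and none of 11 in LDAH-KO PM passed the factor of 1.5, beside the few percent of all genes given above, and their median log2 ratios were 0.04 and -0.12. In LDAH-Tg PM *Nfe2l2* (-0.30) and *Pparg* (-0.16) lay below the middle 50% of genes, and *Mafg* (0.26) and *Nr1h2* (0.21) above it.

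Targets of AhR and Nrf2 were counted as lists drawn up with earlier results known. Of the AhR targets, none of the 3 measured passed the factor in LDAH-Tg PM. In LDAH-KO PM 1 of 3 did, *Cyp1b1*, at 1.51 TPM against 3.82 TPM in the WT controls, a log2 ratio of -1.10. Over all genes, 1.83% were lower and 0.39% higher by the factor in LDAH-KO PM, and 0.685% and 1.26% in LDAH-Tg PM. With so few targets measured, nothing is read from these counts. *Cyp1a1*, a classical AhR target of liver, was at or below 0.0340 TPM in all groups. Of 10 Nrf2 targets, 9 were lower to some degree in LDAH-Tg PM but none by the factor, with a median log2 ratio of -0.11 beside 0.00 over all genes. *Nqo1*, a quinone reductase that is a target of both AhR and Nrf2, had 4.25 TPM in LDAH-Tg PM, 4.95 TPM in their littermate controls, 9.25 TPM in LDAH-KO PM and 9.76 TPM in their littermate controls. In LDAH-KO PM 4 of 9 measured Nrf2 targets were higher and 5 lower to some degree, none by the factor, with a median of -0.04.

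The steps around glucuronidation were measured as well. *Ugdh*, which makes UDP-glucuronate, had 78.5 TPM in LDAH-Tg PM, 87.7 TPM in their littermate controls, 144 TPM in LDAH-KO PM and 170 TPM in their littermate controls. Neither it nor the 5 other genes of UDP-glucuronate supply passed the factor in either genotype, with medians of -0.17 in LDAH-Tg PM and -0.12 in LDAH-KO PM. The ratio farthest from 0 among them was that of *Uxs1*, which turns UDP-glucuronate into UDP-xylose, at 18.4 TPM in LDAH-Tg PM, against 25.9 TPM in their littermate controls (-0.48). *Gusb*, the lysosomal enzyme that removes glucuronic acid, had 425 TPM in LDAH-Tg PM, 507 TPM in their littermate controls, 805 TPM in LDAH-KO PM and 771 TPM in their littermate controls, above the *Ugt1a* sum throughout. Of the exporters of glucuronides and other conjugates, *Abcc3* had 31.2 TPM in LDAH-Tg PM, against 37.5 TPM in their littermate controls, and 14.3 TPM in LDAH-KO PM and 18.1 TPM in theirs. *Abcg2* had the lowest ratio of that group in LDAH-Tg PM, -0.49, at 7.55 TPM against 10.8 TPM, and 0 of 6 measured genes of hydrolysis and export passed the factor in either genotype. These counts stand beside 1.26% higher and 0.685% lower of all genes in LDAH-Tg PM, and 0.39% and 1.83% in LDAH-KO PM.

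Bilirubin, the substrate of *Ugt1a1*, arises from heme by heme oxygenase and biliverdin reductase. *Hmox1* had 1607 TPM in LDAH-Tg PM, 1659 TPM in their littermate controls, 1222 TPM in LDAH-KO PM and 1207 TPM in their littermate controls, and *Blvrb* was similarly abundant, between 791 and 1206 TPM. None of the 4 genes of this step passed the factor, beside the few percent of all genes given above. Their medians were -0.05 in LDAH-Tg PM and 0.12 in LDAH-KO PM. Of 14 listed *Ugt2*, *Ugt3* and related genes of the same enzyme class, 13 were listed at 0 in every group. The exception was *Ugcg*, which attaches glucose to ceramide, at 15.6 TPM in LDAH-Tg PM, 16.9 TPM in their littermate controls, 15.0 TPM in LDAH-KO PM and 17.0 TPM in their littermate controls. No glucuronosyltransferase gene on that list thus had a value above 0.

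Of 17 measured genes for other conjugation reactions (sulfate, methyl, acetyl and glutathione transfer, and epoxide hydrolysis), 0 passed the factor in LDAH-Tg PM, 9 being higher and 8 lower to some degree around a median of 0.02. In LDAH-KO PM 1 passed it, the cholesterol sulfotransferase gene *Sult2b1*, at 2.39 TPM against 4.24 TPM in the WT controls, a log2 ratio of -0.71. Over all genes 1.83% were lower and 0.39% higher there, and 0.685% and 1.26% in LDAH-Tg PM. Genes that flank the array did not pass the factor either. *Usp40*, next to it, stood at a log2 ratio of 0.25 with LDAH-Tg and -0.25 with LDAH-KO, and *Hjurp* had ratios of 0.19 and -0.28.

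**Figure D5:**
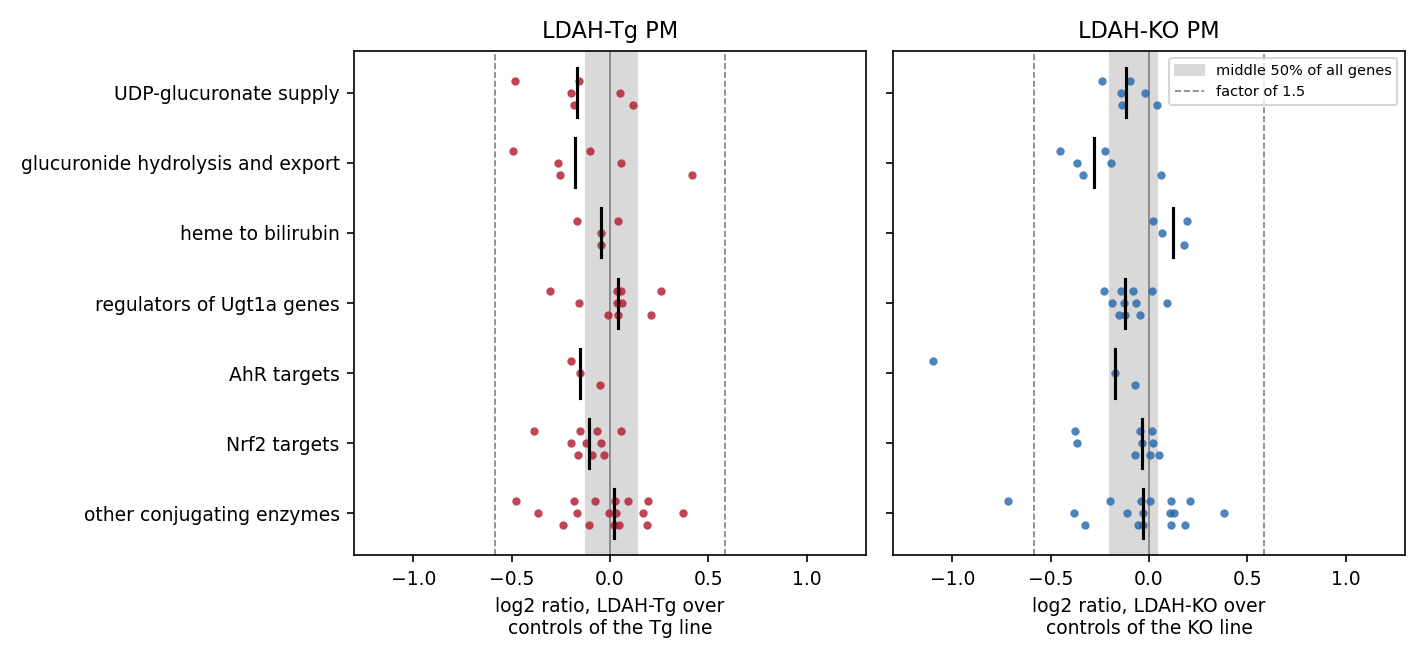
Log2 ratios (after adding 0.5 TPM) of the measured genes of 7 lists around glucuronidation, LDAH-Tg over WT controls on the left and LDAH-KO over WT controls on the right. Each point is a gene, black lines are list medians, the grey band is the middle 50% of all genes and dashed lines mark a factor of 1.5, passed only by *Cyp1b1* (-1.10) and *Sult2b1* (-0.71) in LDAH-KO PM.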

How the data were processed

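Per the authors' methods, poly(A)-enriched RNA of oxLDL-treated PM was sequenced as 100 bp paired-end reads, trimmed with Trimmomatic and aligned to mm10 (GRCm38) with STAR 2.4.2a. The submitters' notes also name bcl2fastq 2.17.1.14, HTSeq, DESeq2 and Cuffdiff 2.2.1, without roles. The deposited values are the authors' mean TPM of each of 4 groups. The tool that made them and its annotation are not given in the sources used here. Each column sums to 1000000 over 48432 genes, and 1 line without a gene that holds this total was left out. Single samples have no column, and the planned tests across samples could therefore not be made.

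Comparisons used genes with a mean of at least 1 TPM over both groups and no group at 0, and log2 ratios after adding 0.5. A symbol on more than 1 entry (116 further entries) was looked up at its highest mean. The members and the gene lists were chosen with earlier results of these data known. Genes named are the members, the genes of their interval, the lists, and the 3 genes of nearest profile to the sum, *Ugt1a7c* and *Ugt1a5*. *Ldah*, *Apoe* and *Prdx1* were named after their values were seen. One listed regulator is not reported here. Steps were tested on simulated data. Pseudocounts, filters, scalings and other sums were tried. Python 3.11.15, numpy 2.4.6, pandas 2.3.3, Biopython 1.88 and matplotlib 3.10.9 were used.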

Additional observations from a re-analysis of the deposited data

How the results depend on the processing

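The sum in LDAH-Tg PM kept its direction and stayed short of a factor of 1.5 under 8 alternatives, with log2 ratios between -0.46 (weighted by transcript length) and -0.35 (without *Ugt1a5* and *Ugt1a7c*). The sum holds *Ugt1a5* and *Ugt1a7c*, both chosen on this contrast. No alternative left out *Ugt1a7c* alone, without which the log2 ratio was -0.03. The count of 2 past the factor was 2 under the 9 alternatives tried for it, which says nothing of its stability, since *Ugt1a5* and *Ugt1a7c* were chosen on this contrast, and under 1 of them a sum stands in for *Ugt1a7c*. In LDAH-KO PM the sum had a log2 ratio of 0.0922 with median-ratio scaling and 0.44 without *Ugt1a5* and *Ugt1a7c*, and 0.04 with quantile normalization, against -0.02 as given. The 1 member past the factor there, *Ugt1a6b*, was lost with a pseudocount of 1 (log2 ratio 0.55), with a minimum mean of 5 TPM, with a factor of 2 and with *Ugt1a6a*, *Ugt1a6b* and *Ugt1a7c* summed into 1, each leaving 0 members. Without a pseudocount its ratio was 0.94. *Ugt1a7c* in LDAH-KO PM lay between -0.07 and 0.03. *Ugt1a5* in LDAH-Tg PM lay between 1.41 and 1.70, and *Ugt1a7c* between -1.07 and -1.01. No pseudocount and the summing of those 3 members were added after the data were seen. No paired analysis was possible because the table holds only group means, and for the same reason no value without single replicates could be computed. The depth is unknown, so values near 0 cannot be given a limit.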
